A study of Mus musculus with 30 samples.

Results

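The comparison of estradiol benzoate (EB) with vehicle at 6 h rested on 6 of the 30 arrays of the series, 3 from EB-treated and 3 from vehicle-treated mice, chosen by the treatment and time in their titles. Each array held the RNA of the whole hypothalamus of 1 C57BL/6J female injected under the skin on the day of birth. The EB group received 7.5 μg of EB, an estradiol ester that releases estradiol in the body, in peanut oil, and the vehicle group received the oil alone. The other 24 arrays belong to the same treatments at 1, 3, 12 and 24 h, each time with its own vehicle group. The females were intact newborns that still had their own ovaries. Which of them shared a litter is not given in the sources used here, and p-values measure the spread between individual mice, each on 1 array.

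Estradiol enters cells and binds estrogen receptor α, encoded by Esr1, and estrogen receptor β, both of which act on DNA as transcription factors. In the newborn rodent brain, estradiol made from testicular testosterone organises male-typical circuits, and estrogen given to newborn females moves their brain towards the male type. Pgr, the progesterone receptor, and Greb1, a cofactor of the estrogen receptor, are among the best known genes that estrogen raises through its receptor.

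The values are MAS5 signals, the Affymetrix software's linear measure of the brightness of a probe set, a group of short probes for 1 transcript. They are given here after each array was scaled to the same median, 41.3. Of 45037 probe sets, the 27022 with the highest mean signal over all arrays were tested with limma, and they stood for 12388 genes. Levels of different probe sets cannot be set against each other.

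At 6 h, 0 of 27022 probe sets (0%) were higher and 0 (0%) lower in EB-treated than in vehicle-treated mice at an adjusted p under 0.05 from limma, and the lowest adjusted p was 0.24. At an unadjusted limma p under 0.05 there were 1626 (6.02%), of which 1067 (3.95%) were higher and 559 (2.07%) lower in EB-treated mice. In 1529 probe sets (5.66%) all 3 EB arrays lay above all 3 vehicle arrays, and in 1168 (4.32%) all lay below, so 2697 (9.98%) did not overlap. No call stood at 6 h, while the same fit called 1, 128, 0 and 749 probe sets at 1, 3, 12 and 24 h. Whether the 6 h effect of each probe set differed from the mean effect of the other 4 times was tested in the same fit, and 0 probe sets passed (lowest limma adjusted p = 0.15, 2189 with an unadjusted p under 0.05). Leaving out an EB array brought a few calls: 6 without EB replicate 1, 2 without EB replicate 2 and 2 without EB replicate 3, of which 1 was a probe set of Dst, against 0 without each vehicle array.

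Replicates correlated between 0.978 and 0.986 within a group and between 0.975 and 0.985 across the groups, over log2 signals. Even so, 2 arrays stood apart. In vehicle replicate 2, 60 of 15312 bright probe sets lay over 2-fold from the mean log2 signal of the other 5 arrays. The same count was 4 to 19 in the others. Vehicle replicate 2 was the lowest of the 6 arrays for 3617 of 12388 genes (29.2%). EB replicate 3 was the highest of the 6 for 4926 genes (39.8%). Its deposited median was 44.0, against 35.3 to 36.9 in the other 5, and its 18S control signal was 1057, against 1540 to 1695. Among probe sets with an unadjusted p under 0.05, 65.6% were higher in EB-treated mice, but 42.3% without EB replicate 3 and 64.2% without vehicle replicate 2. Between the groups, the median signal gave p = 1 and the 18S signal p = 0.9 (exact permutation test, two-sided). The 3′ to 5′ signal ratio of the Gapdh control probe sets, a measure of RNA integrity, was 0.701 ± 0.00665 in EB-treated and 0.668 ± 0.0140 in vehicle-treated mice (SD, n = 3 each), with an exact p of 0.1, the smallest that 3 against 3 allows. The part of these array differences in the results below was not tested.

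**Figure D1:**
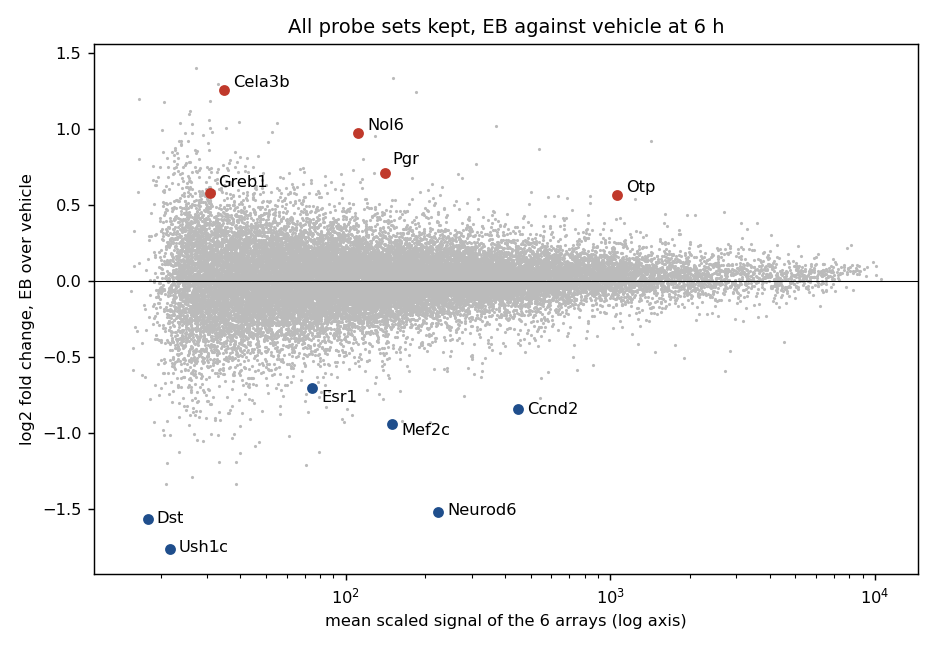
Log2 fold change of EB over vehicle at 6 h (y axis) against the mean scaled signal of the 6 arrays (x axis, log scale), 1 grey point for each of 27022 probe sets, with 11 probe sets marked by gene. Pgr lies at 0.71 and Otp at 0.57, Esr1 at -0.70, while the widest spread belongs to the dimmest probe sets, such as those of Dst and Ush1c.

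The brighter Pgr probe set had signals of 171, 165 and 191 in EB-treated mice, against 121, 96.4 and 105 in vehicle-treated mice. All 3 EB values lay above all 3 vehicle values, and the ratio of the means was 1.63. The log2 fold change was 0.71 (95% confidence interval 0.43 to 0.99, limma adjusted p = 0.26), so Pgr had the second lowest unadjusted p of all probe sets tested but did not pass. It was 0.63 without vehicle replicate 2 and 0.65 without EB replicate 3. At 1, 3, 12 and 24 h the same probe set gave 0.36, 0.28, 0.34 and 0.48, and its 6 h effect exceeded their mean by 0.34 (standard error, SE, 0.16, limma adjusted p = 0.58). The dimmer Pgr probe set read 66.0, 63.1 and 51.4 in EB-treated mice and 51.8, 58.2 and 51.1 in vehicle-treated mice. These groups overlapped, and the log2 fold change was 0.16 (95% confidence interval -0.27 to 0.58), so the 2 probe sets of the gene gave effects of different size. In bulk tissue such as this, fewer cells of a type and less RNA per cell cannot be told apart.

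Esr1 read lower in EB-treated mice on both of its kept probe sets. On the brighter the signals were 61.9, 60.8 and 47.7 in EB-treated mice, against 86.7, 78.8 and 112 in vehicle-treated mice. On the dimmer they were 22.1, 17.5 and 15, against 29.7, 27.3 and 39.1 in vehicle-treated mice. The groups did not overlap on either one, and the log2 fold changes were -0.70 (SE 0.21, limma adjusted p = 0.52) and -0.82 (SE 0.23, limma adjusted p = 0.51). Without vehicle replicate 2 they were -0.81 and -0.92. The brighter probe set gave -0.0013, 0.28, -0.49 and -0.06 at 1, 3, 12 and 24 h, and its 6 h effect differed from their mean by -0.63 (SE 0.23, limma adjusted p = 0.5).

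Greb1 was dim but higher in EB-treated mice. Its first probe set read 37.4, 31.7 and 41.1 in EB-treated mice, against 23.8, 28 and 21.9 in vehicle-treated mice, with no overlap and a log2 fold change of 0.58 (SE 0.21, limma adjusted p = 0.65). The second read 49.2, 44.9 and 29.1, against 25.6, 21.2 and 33 in vehicle-treated mice, where EB replicate 3 fell among the vehicle values and the log2 fold change was 0.61. The first gave -0.24, 0.04, 0.85 and 0.58 at 1, 3, 12 and 24 h, and the second -0.37, -0.32, 0.77 and 1.17. Tff1, a secreted trefoil peptide that estrogen raises in breast cancer cells, read 163, 226 and 194 in EB-treated mice and 118, 136 and 172 in vehicle-treated mice, overlapping by 1 array, with a log2 fold change of 0.46. Ccnd1, a cyclin of the G1 phase, read 193, 199 and 202, against 216, 239 and 250 in vehicle-treated mice, with no overlap and a log2 fold change of -0.24.

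**Figure D2:**
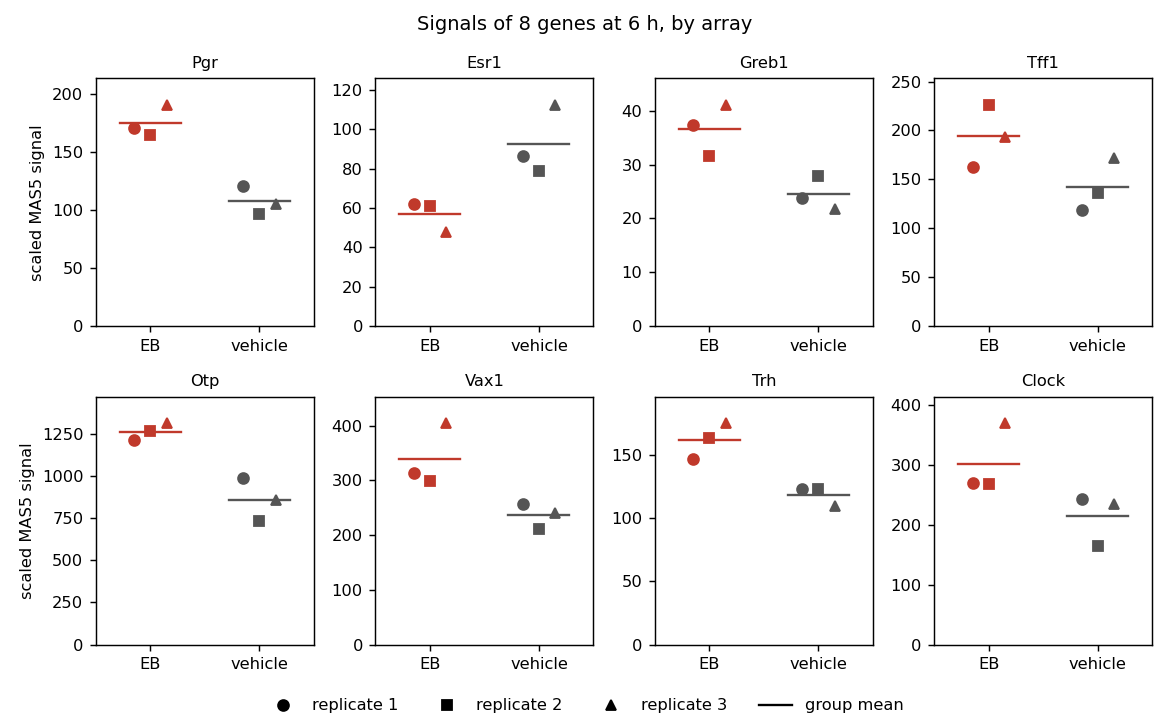
Scaled MAS5 signal (y axis, from 0) of Pgr, Esr1, Greb1, Tff1, Otp, Vax1, Trh and Clock in each array at 6 h, EB on the left and vehicle on the right, with a symbol for each replicate and a line at the group mean. The 2 groups do not overlap for any of these genes except Tff1, and Esr1 alone of the 8 is lower in EB-treated mice.

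Among the 23 measured sex steroid receptors and estrogen-responsive genes 0 passed in either direction. At an unadjusted p under 0.05, 3 were higher (Pgr, Greb1 and Tff1) and 1 was lower (Esr1), beside 4.78% and 1.69% of all genes. The groups were separate for 2 higher (Pgr and Greb1) and 2 lower genes (Esr1 and Ccnd1), where such separation was found for 5.92% of all genes with EB above and 3.71% with EB below. Their median log2 fold change was 0.10, against 0.02 over all genes. It was 0.09 without vehicle replicate 2 and 0.048 without EB replicate 3. Nuclear receptor coregulators, the proteins that the receptors recruit to DNA, had a median of -0.01 over 15 genes, and all of them lay between -0.15 and 0.14. Of 10 enzymes of steroid synthesis and conversion, Hsd17b12, which also elongates fatty acids, read 1021, 1076 and 1191 in EB-treated mice and 973, 1004 and 953 in vehicle-treated mice. Hsd17b4, a peroxisomal enzyme that also inactivates estradiol, read 477, 456 and 482, against 517, 528 and 578 in vehicle-treated mice. Hsd17b10, a mitochondrial dehydrogenase, read 399, 364 and 442, against 481, 447 and 446. The groups of these 3 of the 10 genes were separate, at log2 fold changes of 0.16 (0.10 without EB replicate 3), -0.20 and -0.19. Over the 10 enzymes, 5 were higher and 5 lower, 0 passed, and the median was 0.0032, or -0.15 without vehicle replicate 2 and -0.099 without EB replicate 3.

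Of the hypothalamic transcription factors, Otp, a homeobox factor needed for neuroendocrine neurons of the paraventricular nucleus, had the clearest separation. It read 1214, 1265 and 1312 in EB-treated mice, against 988, 732 and 860 in vehicle-treated mice. The log2 fold change was 0.57 (SE 0.12, limma adjusted p = 0.29), and 0.45 without vehicle replicate 2, its lowest array. At the other 4 times Otp lay between -0.19 and -0.03, and the 6 h effect differed from their mean by 0.66 (SE 0.14, limma adjusted p = 0.15). Vax1, a homeobox factor of the ventral forebrain needed for neurons that make gonadotropin-releasing hormone, read 314, 299 and 404 in EB-treated mice and 256, 211 and 241 in vehicle-treated mice. It did not overlap either, at 0.51 (SE 0.13, limma adjusted p = 0.37) with all arrays. Vax1 stood at 0.44 without vehicle replicate 2 and at 0.38 without EB replicate 3, its highest array. Sox14 read 71.3, 54.1 and 102 in EB-treated mice and 60.6, 30.5 and 64.1 in vehicle-treated mice, and Pou3f3 340, 372 and 443, against 423, 731 and 430. Vehicle replicate 2 was the extreme array of both, and their log2 fold changes were 0.58 and -0.42 with it and 0.24 and -0.16 without it. Without EB replicate 3, Sox14 stood at 0.34. In all, 26 of 32 such factors were higher and 6 lower, beside 7085 and 5303 of all 12388 genes, and 0 passed. The groups were separate for 3 (Otp, Vax1 and Lmx1b, a LIM homeobox factor), all higher, beside 5.92% of all genes with EB above. The median of the 32 was 0.13, but 0.02 without vehicle replicate 2, which was the lowest of the 6 arrays for 20 of them. With each array left out in turn, the median ran from 0.016 to 0.28. Of the factors that mark the hypothalamus itself, Otp ran from 732 to 1312 over the 6 arrays, Sim1 from 208 to 348 and Fezf1 from 191 to 347, while Nr5a1 and Nkx2-1 were dim, at 25.9 to 81.7 and 13.9 to 46.2.

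Hypothalamic peptides were mostly higher in EB-treated mice by small amounts. Trh, which encodes the hormone that drives the thyroid axis, read 147, 163 and 175 in EB-treated mice, against 123, 123 and 110 in vehicle-treated mice. Its log2 fold change was 0.44 (SE 0.17, limma adjusted p = 0.69) with no overlap, and 0.47 without vehicle replicate 2. Oxt, the oxytocin gene, was also separate, at 201, 255 and 211 in EB-treated mice against 188, 198 and 171 in vehicle-treated mice, though its log2 fold change was only 0.25. Vip, a peptide of the suprachiasmatic clock, read 88.4, 65.8 and 90.1, against 67.6, 35.5 and 69.1 in vehicle-treated mice. Avp, the vasopressin gene, read 2121, 1601 and 2315, against 1753, 1101 and 2130. For both, vehicle replicate 2 was the lowest array, and without it Vip moved to 0.24 (0.55 with it) and Avp to 0.04 (0.31 with it). Of 24 peptide genes, 19 were higher and 5 lower, 0 passed, and 3 were separate: Trh, Oxt and, in the lower direction at -0.19, Cartpt, which encodes an appetite-related peptide. Over all genes, 5.92% were separate with EB above and 3.71% with EB below. The median of the 24 was 0.13, but 0.01 without vehicle replicate 2, the lowest of the 6 arrays for 14 of them, and 0.035 without EB replicate 3. It ran from 0.0095 to 0.21 with each array left out in turn.

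Vehicle replicate 2 carried the largest single differences at 6 h. Neurod6, a factor of excitatory neurons of the cortex and hippocampus, read 63.8, 78.0 and 88.2 in EB-treated mice, against 112, 899 and 102 in vehicle-treated mice. Lhx8, a factor of forebrain cholinergic neurons that was also counted in the list of hypothalamic factors above, read 52.1, 140 and 38.2, against 23.6, 469 and 19.3. Meis2, a homeobox factor of the developing striatum and other regions, read 83.6, 256 and 121 on its brightest probe set, against 42.3, 703 and 29.1 in vehicle-treated mice. In each of these genes the second vehicle array was the highest of the 6, several times above the other vehicle arrays. Mef2c, a factor of cortical neurons, was also highest in that array on all 5 of its kept probe sets, and so was Bcl11b, a factor of striatal and deep cortical neurons, at 1344 there and 645 and 617 in the other vehicle mice. Tbr1, a factor of early cortical neurons, read 132 there and 6.16 and 2.85 in the other vehicle mice, against 15.8, 30.6 and 6.86 in EB-treated mice. The log2 fold changes accordingly turned on that array: Neurod6 was at -1.51 with it and -0.49 without it, Lhx8 at 0.13 and 1.62, Meis2 at 0.53 and 1.97, Tbr1 at 0.17 and 1.83, Mef2c, on its probe set with the lowest p, at -0.94 and -0.22, and Bcl11b at -0.50 and -0.14. For Lhx8, Meis2 and Tbr1 the ratio of the group means pointed the other way, at 0.451, 0.595 and 0.378, since a single high array weighs more in a mean of signals than in a mean of log2 signals. The 12 measured markers of neighbouring regions (telencephalon, thalamus and pituitary), Neurod6, Tbr1 and Bcl11b among them, had 7 higher and 5 lower members. Their median log2 fold change was 0.04, or -0.07 without vehicle replicate 2. Their summed signal, in which the brightest probe sets weigh most, ran from 2539 to 3119 in EB-treated mice. In vehicle-treated mice it ran from 2707 to 4128, with the top of the range in vehicle replicate 2. That array was the highest of the 6 for 6 of the 12 but the lowest for 5. Calb2, for example, read 891, 1173 and 1212 in EB-treated mice, and its lowest signal, 805.5, was on that array. Whether the piece of tissue on that array held more of the neighbouring telencephalon, and what part that had in the other results at 6 h, was not tested.

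**Figure D3:**
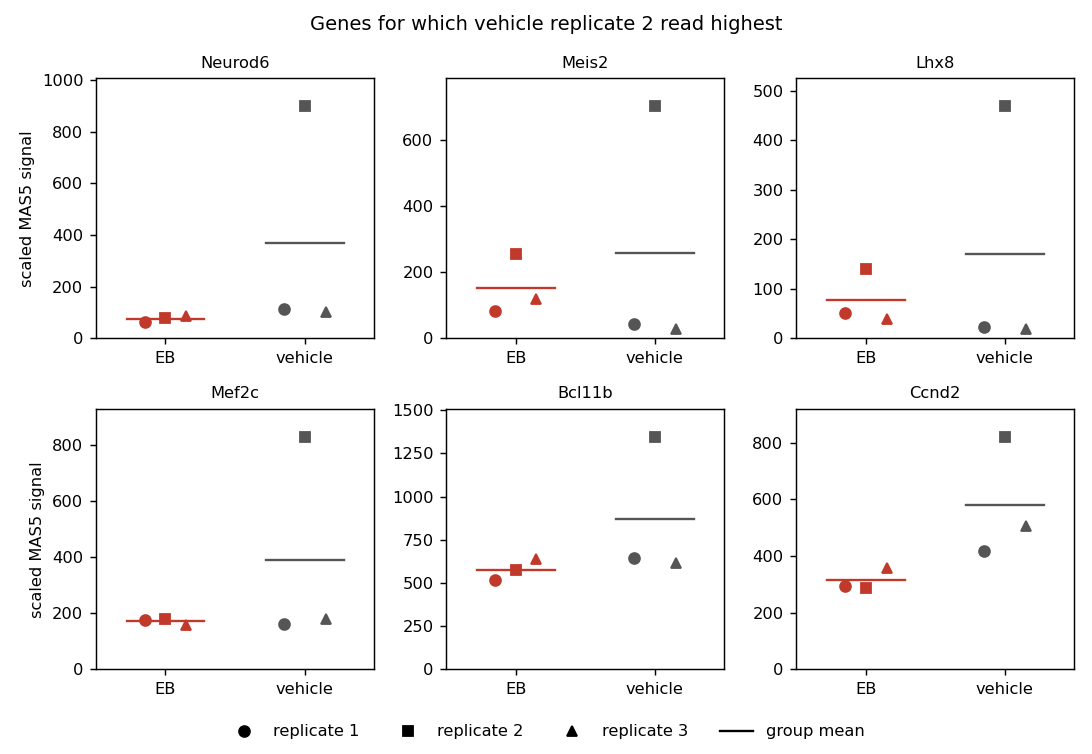
Scaled MAS5 signal (y axis, from 0) of Neurod6, Meis2, Lhx8, Mef2c (its brightest probe set), Bcl11b and Ccnd2 in each array at 6 h, EB on the left and vehicle on the right, with a symbol for each replicate and a line at the group mean. Vehicle replicate 2 (square) is the highest of the 6 arrays in every panel, and it lies at 899 for Neurod6 and 469 for Lhx8.

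Ccnd2, a D-type cyclin of dividing progenitors, was lower in EB-treated mice on all 6 of its kept probe sets. On the one with the lowest p it read 295, 288 and 358, against 418, 820 and 507 in vehicle-treated mice, with no overlap. The log2 fold change was -0.84 (SE 0.18, limma adjusted p = 0.29), and over the 6 probe sets it ran from -0.84 to -0.59. Vehicle replicate 2 was again the highest array, and without it this probe set stood at -0.56 and the range was -0.56 to -0.24. On the brightest Ccnd2 probe set the groups overlapped, at 418, 346 and 468 in EB-treated mice against 437, 1099 and 530 in vehicle-treated mice. Its log2 fold change was -0.64, or -0.24 without vehicle replicate 2. Top2a, the topoisomerase of dividing cells, read 78.8, 88.3 and 102 in EB-treated mice and 117, 137 and 113 in vehicle-treated mice, with no overlap and a log2 fold change of -0.45, or -0.37 without vehicle replicate 2. The 29 cell cycle and DNA replication genes as a whole had 0 calls, with 17 lower and 12 higher members. Their median was -0.09, or -0.01 without vehicle replicate 2. Separate members numbered 5, all lower, beside 3.71% of all genes with EB below, and Ccnd2 was not among them.

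By the fold alone, 8 probe sets (0.0296%) were at 2-fold or more and 28 (0.104%) at 0.5-fold or less, EB over vehicle. Of the 28, 18 had a signal in vehicle replicate 2 over 1.5 times that of both other vehicle arrays, and 6 stayed at 0.5-fold or less without it. Of the 8, 7 stayed at 2-fold or more. The lower ones included Neurod6 at 0.207-fold, 5 of 5 Mef2c probe sets at 0.316-fold to 0.440-fold, Rarb, a retinoic acid receptor, at 29.7, 29.4 and 31.0 against 28.3, 104 and 48.4 in vehicle-treated mice, and Tiam2, an activator of the GTPase Rac, at 20.2, 17.9 and 25.3 against 30.1, 110 and 22.2. The higher ones included Htr1b, a serotonin receptor, at 20.3, 17.0 and 47.3 against 16.4, 17.2 and 4.95 in vehicle-treated mice, and Syndig1l, a synaptic membrane protein, at 12.9, 35.3 and 64.8 against 17.6, 18.4 and 19.5. The groups overlapped in Rarb, Tiam2, Htr1b and Syndig1l. They were separate for 4 of the 8 higher probe sets, Cela3b at 2.27-fold and A330102I10Rik at 2.06-fold among them, and for 10 of the 28 lower ones, among them those of Neurod6, Dst and Ush1c. Without EB replicate 3, Htr1b moved to 0.73 on the log2 scale, against 1.18 with it. Syndig1l passed in limma when EB replicate 1, its low array, was left out (log2 fold change 1.38, against 0.74 with it).

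Probe sets with an unadjusted p under 0.01 and separate groups numbered 249 higher (0.921%) and 97 lower (0.359%), and the 15 genes with the largest change in each direction were examined. Most of these were dim: 14 of the 15 higher and 13 of the 15 lower probe sets had a mean signal under 50. The highest was Cela3b, a pancreatic protease, at 56.0, 45.8 and 42.5 in EB-treated mice and 12.6, 29.4 and 21.5 in vehicle-treated mice (log2 fold change 1.26). Irx1, an Iroquois homeobox factor, read 36.8, 44.3 and 40.4, against 28.9, 13 and 19.4 (1.06). Nol6, a nucleolar protein of ribosome assembly, was the bright exception, with 150, 107 and 187 in EB-treated mice against 54.4, 76.5 and 94.6 in vehicle-treated mice. Its log2 fold change was 0.97 (limma adjusted p = 0.37), or 0.78 without EB replicate 3, and 0.40 on its other probe set. Ncmap, a protein of Schwann cell myelin, lay at 0.98. Bach2, a repressor of the leucine zipper class, lay at 0.84 on its dimmest kept probe set and at 0.02 and 0.04 on its brighter ones. Mark2, a kinase of cell polarity, lay at 0.82 on its dimmest kept probe set and at 0.07 and 0.46 on its brighter ones. The 19 other kept probe sets of the 15 higher genes pointed the same way in 11 cases, and 1 of them, a probe set of Mark2, had an unadjusted p under 0.05.

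The lowest unadjusted p of all belonged to a probe set of Dst, which encodes the cytoskeletal linker dystonin. It read 5.93, 7.37 and 15.3 in EB-treated mice, against 26.8, 31.1 and 20.8 in vehicle-treated mice, a log2 fold change of -1.56 (SE 0.29, limma adjusted p = 0.24). Without EB replicate 3 it reached -1.97 and passed (limma adjusted p = 0.0038), yet the gene's other 2 kept probe sets gave 0.01 and 0.10. Ush1c, a scaffold protein of hair cell bundles, read 4.12, 10.3 and 19.6, against 28.5, 33.7 and 33.5 in vehicle-treated mice (log2 fold change -1.76), and had no other kept probe set. Elovl7, a fatty acid elongase, lay at -1.19, against -0.16 on its other kept probe set, and Trmt9b, a methyltransferase-like protein, at -1.19. S100a10, a partner of annexin A2, lay at -1.01 on its dimmest kept probe set and at -0.40 and -0.31 on its brighter ones. Pitpnb, a phosphatidylinositol transfer protein, lay at -0.82 on its dimmest kept probe set. Its brighter ones gave -0.10, 0.31 and 0.25, and at 0.31 the groups were separate with EB above. Rhobtb3, a Golgi ATPase, lay at -0.78 on its dimmest kept probe set and at -0.10, -0.22 and -0.04 on its brighter ones. For the 15 lower genes, 21 of 26 other probe sets pointed the same way. Of these, 10 had an unadjusted limma p under 0.05: 5 of Ccnd2, 3 of Mef2c, 1 of Esr1 and 1 of S100a10. Vehicle replicate 2 was the highest array for Ccnd2 and Mef2c. Without it, the other Mef2c probe sets stood at 0.007, -0.15, -0.03 and 0.10, and those of Ccnd2 at -0.46 to -0.24.

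None of the measured clock, glucocorticoid-responsive or energy-stress genes passed. Clock, a core circadian activator, read 269, 268 and 369 in EB-treated mice, against 242, 164 and 235 in vehicle-treated mice (log2 fold change 0.50, limma adjusted p = 0.52). It lay at 0.32 without vehicle replicate 2 and at 0.35 without EB replicate 3. Bhlhe40, a circadian repressor, read 48.2, 55.5 and 68.7, against 75.5, 79.1 and 88.1 in vehicle-treated mice, and Cry2, a cryptochrome of the negative limb, 134, 148 and 138, against 174, 169 and 158. These 3 of the 17 clock genes were separate, at 0.50, -0.51 and -0.26, beside the 5.92% and 3.71% of all genes. The clock genes had a median of -0.01, with 8 higher and 9 lower. Sgk1, a kinase raised by glucocorticoids, read 234, 231 and 171 in EB-treated mice and 260, 319 and 286 in vehicle-treated mice (-0.46, separate). Of the 20 glucocorticoid receptors and responsive genes 8 were higher and 12 lower, 2 of them separate (Sgk1 and Nr3c1, the glucocorticoid receptor, both lower), with a median of -0.06, or -0.03 without vehicle replicate 2. Ndrg1, a gene of hypoxia and stress responses, read 310, 302 and 313, against 359, 385 and 450 (-0.36, separate), and its 6 h effect lay 0.61 below the mean of the other times (limma adjusted p = 0.22). Trib3, a pseudokinase of the stress response, went the other way, at 33.3, 37.0 and 33.8 against 31.6, 25.8 and 18.2 in vehicle-treated mice (0.50, separate). Among the 19 fasting, hypoxia and energy-stress genes 6 were higher and 13 lower, 1 higher and 2 lower ones were separate, and the median was -0.035, or -0.073 without EB replicate 3.

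Of 18 immediate early genes, which respond to neuronal activity within minutes, 14 were lower in EB-treated mice and 0 passed. Npas4, an activity-dependent factor of neurons, read 28.4, 37.2 and 46.9, against 65.6, 55.8 and 45.7 in vehicle-treated mice, overlapping by a single array, and Ier5 read 140, 134 and 163, against 165, 201 and 171, with no overlap. Their log2 fold changes were -0.59 and -0.30, and both kept their sign without vehicle replicate 2. Nr4a3, an orphan nuclear receptor, read 62.1, 62.2 and 68.7, against 73.4, 233 and 57.5 in vehicle-treated mice, so its -0.63 became -0.02 without that array. Dusp1, a phosphatase of MAP kinases, lay at -0.29, or -0.17 without it. Fos, the prototype of the class, looked up after the values were seen, lay on the other side with separate groups, at 154, 125 and 170 in EB-treated mice and 119, 104 and 120 in vehicle-treated mice (0.38, limma adjusted p = 0.93). Fos and Ier5 were the separate genes of the list, beside 5.92% of all genes with EB above and 3.71% with EB below. The list's median was -0.13 at 6 h, or -0.02 without vehicle replicate 2, and 0.28, 0.29, 0.17 and -0.07 at 1, 3, 12 and 24 h.

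Genes of cell death were examined because perinatal estradiol controls neuron survival in several sexually dimorphic nuclei. Bak1, a Bcl2 family member that permeabilises mitochondria, read 56.5, 59.9 and 67.1 in EB-treated mice, against 49.1, 36.2 and 42.8 in vehicle-treated mice (log2 fold change 0.53, limma adjusted p = 0.52). Bcl2l1, which protects cells from death, read 284, 289 and 362, against 280, 261 and 254 (0.23, or 0.11 without EB replicate 3). Birc2, an inhibitor of apoptosis, read 234, 246 and 252, against 278, 288 and 275 in vehicle-treated mice (-0.20). These were the 3 of 23 Bcl2 family and caspase genes with separate groups, 2 higher and 1 lower, beside 5.92% and 3.71% of all genes. The list had 0 calls and a median of 0.02 (-0.025 without EB replicate 3), with 13 higher and 10 lower.

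Markers of the leptomeninges, the thin fibroblast sheets that cover the brain, were lower in EB-treated mice in 32 of 33 cases, and 0 passed. Their median log2 fold change was -0.40, against 0.02 over all genes, but the groups were separate for 1 of the 33 (Slc47a1, looked up after the values were seen), beside 3.71% of all genes. As a mean log2 deviation of the 33 genes from their average over the 30 arrays, the level was 0.56, -0.11 and -0.10 in EB-treated mice and -0.05, 0.91 and 0.72 in vehicle-treated mice, so the groups overlapped. Their summed signal, in which bright members such as Ptgds weigh most, ran from 13740 to 19610 in EB-treated and from 13550 to 22400 in vehicle-treated mice. Vehicle replicate 2 was the highest array for 22 of the 33 and vehicle replicate 3 for the other 11, and the median was -0.17 without vehicle replicate 2 and -0.25 without EB replicate 3. Slc13a4, a sulfate transporter of these cells, read 83.2, 20.1 and 33.4 in EB-treated mice and 52.5, 147 and 88.5 in vehicle-treated mice (log2 fold change -1.21, or -0.83 without vehicle replicate 2). Slc22a6, an organic anion transporter, lay at -0.63 (-0.33 without that array), Crabp2, a retinoic acid carrier, at -0.59 (-0.51) and Igfbp2, a binding protein of insulin-like growth factors, at -0.33 (-0.13). The list's median was 0.37, -0.18, 0.55 and -1.99 at 1, 3, 12 and 24 h, so its sign varied between times.

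Vehicle replicate 2 was also the highest array for the mean level of the extracellular matrix, endothelial, microglial and mural lists, all of which had 0 calls. With each array left out in turn, their medians ran from -0.28 to -0.07, -0.33 to 0.012, -0.34 to -0.12 and -0.26 to -0.0035, in that order. Of 57 extracellular matrix genes 46 were lower, with a median of -0.16 (-0.07 without vehicle replicate 2). Among them Postn read 186, 85.4 and 88.7 in EB-treated mice and 114, 305 and 183 in vehicle-treated mice. Without vehicle replicate 2 its log2 fold change of -0.72 became -0.36. Pcolce, which helps process collagen, lay at -0.63 and Lamb1, a laminin chain, at -0.56, or at -0.30 and -0.25 without that array, while Hspg2, the basement membrane proteoglycan perlecan, read 111, 135 and 178 in EB-treated mice and 90.0, 82.9 and 115 in vehicle-treated mice (0.54, or 0.36 without EB replicate 3). Of 20 endothelial markers 19 were lower, with a median of -0.15, but 0.01 without vehicle replicate 2, which was the highest array for 17 of them. Cldn5, a tight junction protein of brain vessels, and Slc2a1, their glucose transporter, lay at -0.25 and -0.35, and at 0.02 and -0.16 without that array. Of 19 microglia and macrophage markers 17 were lower (median -0.22, or -0.12 without it). The groups were separate for 3 (Cd163, C1qa and P2ry12), all lower, beside 3.71% of all genes with EB below. Cd163, a scavenger receptor of border macrophages, stood at 42.0, 21.9 and 24.3 against 49.4, 57.4 and 48.1 in vehicle-treated mice. C1qc, a complement chain, read 147, 97.2 and 105, against 139, 203 and 144, and Mrc1, the mannose receptor of border macrophages, lay at -0.57, or -0.33 without vehicle replicate 2. Higd1b, a pericyte gene, read 32, 27.1 and 25.2, against 40.1, 55.5 and 42.7 in vehicle-treated mice, and the 10 mural markers had a median of -0.10 (-0.0035 without vehicle replicate 2 and -0.16 without EB replicate 3). The 13 tanycyte, ependymal and choroid plexus genes showed another order of arrays: their mean level was lowest in EB replicates 1 and 2, at -0.24 and -0.21, against 0.0010 to 0.044 in vehicle-treated mice, with EB replicate 3 at -0.0047. In this list 3 were higher and 10 lower, 0 passed, 1 was separate (Dio2), and the median was -0.13, or -0.24 without EB replicate 3. Dio2, the deiodinase of tanycytes, read 41.3, 37.2 and 43.7, against 47.7, 90.1 and 52.3, and Clic6, a choroid plexus channel protein, 15.6, 14.8 and 22.1, against 20.9, 52.2 and 28.9. Their log2 fold changes were -0.58 and -0.88, or -0.30 and -0.51 without vehicle replicate 2. Foxj1, the master factor of motile cilia in ependymal cells, lay at 0.26 with that array and -0.079 without it.

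**Figure D4:**
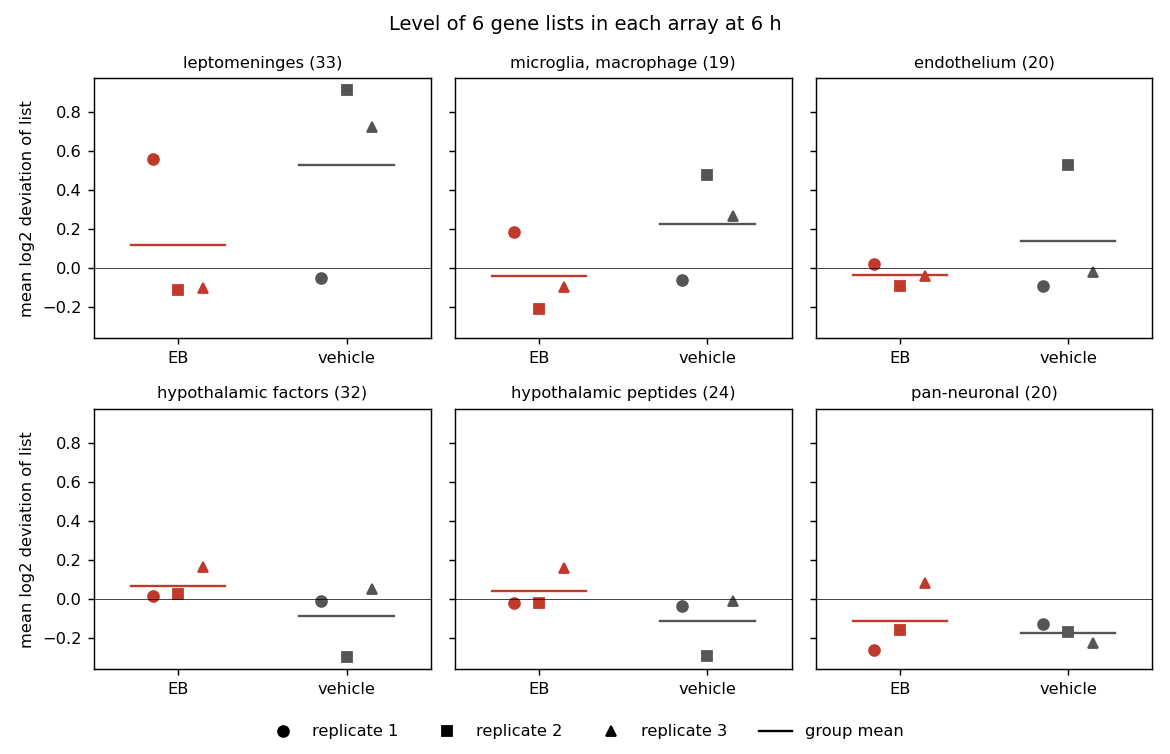
Mean log2 deviation of each of 6 gene lists from its average over the 30 arrays (y axis), by array, EB on the left and vehicle on the right, with a symbol for each replicate, a line at the group mean and the number of genes in brackets. Vehicle replicate 2 (square) is the highest array for the leptomeningeal, microglial and endothelial lists and the lowest for the hypothalamic factors and peptides.

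Pan-neuronal markers were higher in EB-treated mice in 17 of 20 cases with a median of 0.08, and EB replicate 3 was the highest of the 6 arrays for 16 of them. Syp, a synaptic vesicle protein, read 898, 984 and 1525, against 911, 796 and 915 in vehicle-treated mice (log2 fold change 0.34, or 0.11 without EB replicate 3). Uchl1, a neuronal ubiquitin hydrolase, lay at 0.20, and Elavl3, an RNA-binding protein of neurons, at 0.23, or at 0.085 and 0.051 without EB replicate 3. The median of the list was -0.01 without EB replicate 3. Bsn, a scaffold of the presynaptic release zone, read 270, 240 and 315, against 251, 187 and 179 in vehicle-treated mice (0.42), and the 29 spine and release genes had a median of 0.05, or -0.04 without EB replicate 3 and 0.0035 without vehicle replicate 2. Astrocyte and radial glia genes had a median of 0.04 over 22 genes (-0.035 without EB replicate 3 and -0.0040 without vehicle replicate 2), where Pax6, a homeobox factor of radial glia, read 33.3, 69.4 and 35.5 in EB-treated mice and 17.0, 61.5 and 13.4 in vehicle-treated mice (0.85, overlapping). Oligodendrocyte lineage genes had a median of 0.07 over 14 genes (0.0097 without EB replicate 3 and 0.023 without vehicle replicate 2), and Sox10, their lineage factor, lay at 0.32. The 12 common reference genes had a median of 0.03 with all arrays and -0.07 without EB replicate 3.

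**Figure D5:**
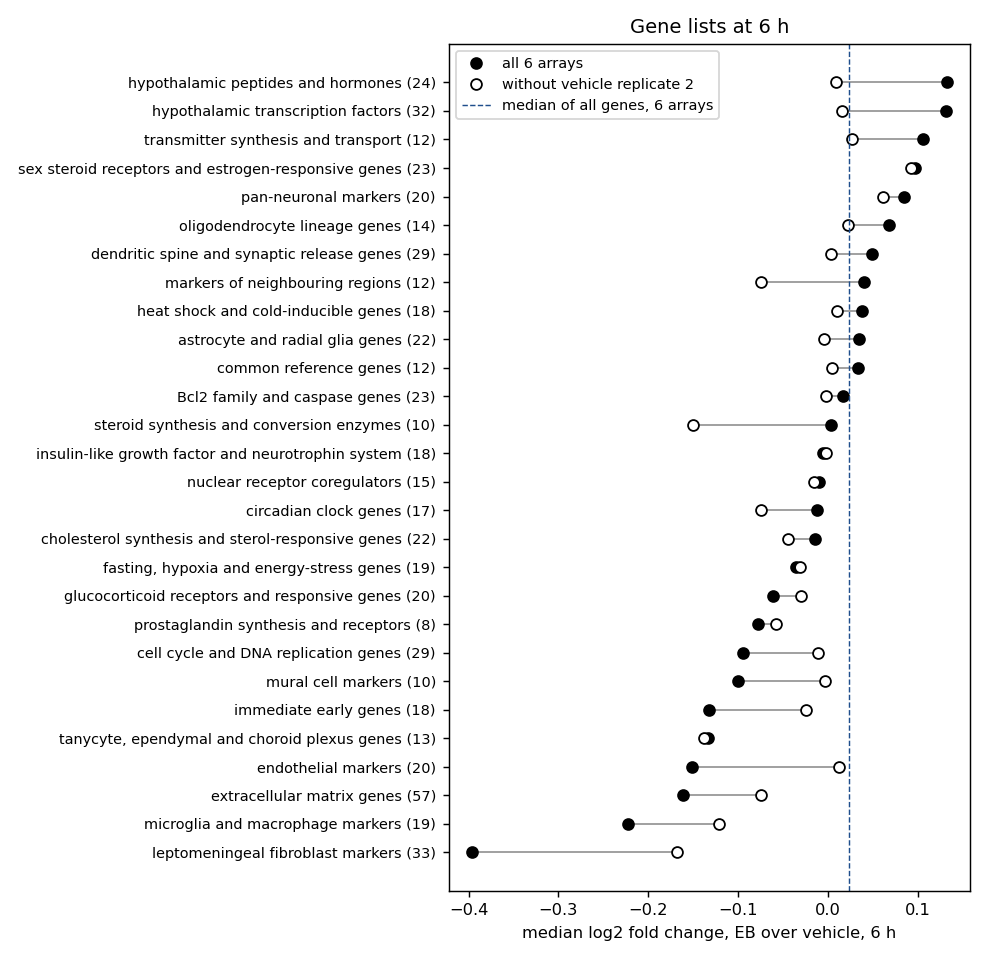
Median log2 fold change of EB over vehicle at 6 h (x axis) for each gene list with 8 or more genes measured (number in brackets). The list of the study's own genes is left out. Filled points are for all 6 arrays, open points are without vehicle replicate 2, and a dashed line marks the median of all genes, 0.02. The leptomeningeal list moves by the largest amount, to -0.17 from -0.40, and the lists of hypothalamic factors and peptides move to 0.02 and 0.01.

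The study drew the genes that it took further from those of 3, 12 and 24 h, by gene ontology and their known roles, and 10 of 11 were measured at 6 h, with 0 called. Klc1, a kinesin light chain, lay at 0.08 on its brightest probe set and at -0.20 and -0.07 on the others. Nedd4, a ubiquitin ligase, lay at 0.06, -0.17 and -0.01. For the second Klc1 probe set the effect was -0.81 at 1 h and -1.49 at 3 h, and for the second Nedd4 probe set -0.39 and -1.03. Hcrt, the orexin precursor, read 44.1, 124 and 55.2 in EB-treated mice and 58.8, 58.5 and 47.3 in vehicle-treated mice, so EB replicate 2 alone was high. Ptgds, which makes prostaglandin D2, read 6842, 5208 and 5463, against 5264, 6951 and 7430 in vehicle-treated mice (log2 fold change -0.16, 95% confidence interval -1.39 to 1.07). Apod, a lipid carrier, read 1140, 531 and 474, against 666, 1344 and 1002, and Vtn, vitronectin, 678, 421 and 448, against 416, 750 and 697. Igf2, a growth factor, read 1859, 917 and 1077, against 968, 1941 and 1680 in vehicle-treated mice. In Ptgds, Apod, Vtn and Igf2, of which Ptgds and Igf2 are in the leptomeningeal list, EB replicate 1 and vehicle replicates 2 and 3 were the high arrays, the same ones as for that list as a whole. Fn1, fibronectin, overlapped on its brighter probe set (464, 370 and 388 in EB-treated mice and 380, 606 and 635 in vehicle-treated mice) and was separate on its dimmer one (56.1, 45.0 and 51.3, against 61.3, 87.0 and 74.3), with log2 fold changes of -0.38 and -0.54.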

How the data were processed

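MAS5 signal intensities on a linear scale were deposited by the authors for GeneChip Mouse Genome 430 2.0 arrays, whose software version and scaling are not stated in the sources used here. Array medians ran from 28.0 to 66.9. Every array was multiplied by a factor that brought its median to their mean, signals under 1 were set to 1, and log2 signals were taken. The 64 control probe sets and the dimmest 40% of the rest were dropped. The 10 groups of all 30 arrays entered a single limma model (limma 3.58.1, R 4.3.3; eBayes, trend = TRUE), and p-values were adjusted by Benjamini-Hochberg over the 27022 probe sets left. The number of arrays limits the precision. Of 45037 probe sets, 34945 carried 1 gene symbol, and genes were represented by their brightest kept probe set. Lists and members were chosen with earlier results of these data known. Genes named are Pgr, Esr1, Greb1, the study's genes, the 15 largest changes each way with an unadjusted p under 0.01 and separate groups, up to 4 members with the lowest p in each list, and probe sets past 2-fold or 0.5-fold. Sim1, Fezf1, Nr5a1 and Nkx2-1 were fixed as tissue markers. Lmx1b, Cartpt, Fos, C1qa, P2ry12 and Slc47a1 fall outside these rules and were named after their values were seen, as list members with separate groups. The fit was tested on simulated data. 1 gene of the study is not reported here. Scaling, filters, low signals, array weights, a replicate block and the choice of arrays were varied, and a test modelled on the study's ANOVA was run.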

Additional observations from a re-analysis of the deposited data

How the results depend on the processing

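The count of 0 calls at 6 h was also 0 with unscaled, quantile-normalized or array-weighted signals. It stayed at 0 with other filters and low-signal settings and with only the 6 arrays of 6 h. A test modelled on the study's ANOVA of treatment and time, on the deposited linear signals, called 0 as well (491 with an unadjusted p under 0.05). It was adjusted by Benjamini-Hochberg over the kept probe sets, whereas the study used a Bonferroni test and selected genes by fold. The count of calls ranged from 0 to 6 over the fits that each lacked 1 array. The test of 6 h against the other times called 4 with quantile normalization, 1 without a filter, and 0 to 13 over the same fits. Deviations of same-numbered arrays correlated at -0.13, 0.04 and 0.02, and those of differently numbered arrays between -0.12 and 0.12. With 3 arrays in each group, these values cannot decide whether the replicate number paired the samples. With the replicate number as a block 0 were called. Probe sets at 2-fold or more and at 0.5-fold or less, 8 and 28, became 1815 and 1739 without a filter and 1 and 7 without the lowest 60%. At 2-fold or more there were 20 in unscaled signals and 18 by geometric means. Without each array in turn they ran from 10 to 37 and from 19 to 73. Among probe sets with an unadjusted p under 0.05, the share higher in EB-treated mice was 82.4% in unscaled signals. Of 97 named probe sets, 83 kept their sign in all settings. With the probe sets of a gene ordered by mean log2 signal from the brightest, the last Meis2 probe set, at -0.04, was at 0.017 unscaled and 0.76 with array weights, and ran from -0.87 to 1.40 when arrays were left out. Its 3 other probe sets ran from -0.33 to 1.97, -0.23 to 2.01 and -0.33 to 1.75, Lhx8 from -0.68 to 1.62, Tbr1 from -0.93 to 1.83, Hcrt from -0.15 to 0.60, Klc1 from -0.0015 to 0.12, the third Nedd4 probe set from -0.13 to 0.085 and Cldn5 from -0.39 to 0.022. That Nedd4 probe set was at 0.042 unscaled and 0.079 with array weights, Tbr1 at -0.70 with signals under 16 set to 16 and -0.29 with 16 added, and Lhx8 at -0.076 with 16 added. The cause was not tested for any of these. Leaving out vehicle replicate 2 and EB replicate 3 together, an alternative chosen after seeing the data, gave 0 calls and turned the sign of the brightest Klc1 probe set (-0.035), the first Nedd4 probe set and the third (-0.016 and 0.083), the last Meis2 probe set (1.38), Igf2 (0.034), Avp (-0.069), Cldn5 (0.088) and Sox14 (-0.0050). The precision of dim probe sets is limited, and their spread was the widest.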
